A study of Mus musculus with 6 samples.

Results

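Matrix metalloproteinases and their inhibitors were examined in bone marrow-derived macrophages (BMDMs) that carry or lack ATP citrate lyase. The group holds 10 genes listed by symbol, which were chosen with earlier results of these data known. They are the metalloproteinases *Mmp8*, *Mmp9*, *Mmp12*, *Mmp13*, *Mmp14* and *Mmp19*, the related surface protease *Adam8*, and the tissue inhibitors *Timp1*, *Timp2* and *Timp3*. All 10 had a row in the table of 24445 genes, and 9 of them were among the 12023 genes with enough reads to be tested. *Timp3* was not.

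RNA was sequenced from 6 libraries of BMDMs of female mice, 3 from AclyM-KO mice and 3 from Ctrl mice. In AclyM-KO mice, Cre expressed from *Lyz2*, a gene of macrophages and granulocytes, removes floxed exon 9 of *Acly*. Ctrl mice were *Acly* fl/fl littermates, so both groups carried the floxed allele, and the mice were on a C57Bl/6J background. Bone marrow cells were cultured with L929-conditioned medium for 7 days and then treated with interleukin-4 (IL-4), the cytokine of alternative macrophage activation, at 100 U/mL for 24 h. The libraries held 12151975 to 15587283 counts over the rows kept, 1 for each gene. The study describes its replicates as biological in one place and as technical, from pooled mice, in another, so the p-values given here measure only the spread between these libraries. Values are CPM (read counts scaled to the library's total and its TMM factor from edgeR), given as mean ± SD over n = 3 libraries. A gene was called when the adjusted p of edgeR's quasi-likelihood test was under 0.05 and its log2 fold change (AclyM-KO over Ctrl) was beyond 0.58 in either direction.

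The labels were checked first. *Acly* fell from 334 ± 14.4 CPM (SD, n = 3) in Ctrl to 138 ± 6.63 CPM in AclyM-KO, a log2 fold change of -1.27 (SE 0.05, edgeR adjusted p = 5.22e-10). All 8 macrophage markers passed the filter on low counts, and their summed level was 13399 to 14710 CPM in Ctrl and 11088 to 11539 CPM in AclyM-KO. Of these 8 genes, *Lyz2* and *Mertk* were called lower (log2 fold changes -0.67 and -0.73), where 2.57% of all genes tested were. *Lyz2*, the gene whose locus drives Cre, made up most of the difference in the sum, and without it the 7 others summed to 7274 to 7590 CPM in Ctrl and 6972 to 7339 CPM in AclyM-KO, which overlap. Within the fold limit, *Csf1r* (log2 fold change -0.20, edgeR adjusted p = 0.00366) and *Itgam* (-0.28, edgeR adjusted p = 0.00113) were lower and *Adgre1*, which encodes the macrophage surface protein F4/80, was higher (0.33, edgeR adjusted p = 2.27e-05). Exons of *Gm49368* on the same strand cover 68.7% of the exonic bases of *Itgam*, and reads of the overlap cannot be told apart. In all, 7 of the 8 markers had a negative log2 fold change, where 50.3% of all genes tested had a positive one. The median of the 8 was -0.15. The part of these differences in the results for the metalloproteinases was not tested.

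Matrix metalloproteinases are zinc enzymes that are made as inactive precursors and cut collagens, elastin and other proteins outside the cell. Tissue inhibitors of metalloproteinases (TIMPs) bind the active enzymes and block them, so the balance between both families sets how much matrix is broken down. In macrophages these enzymes are known for tissue remodelling and migration, and the mRNA level measured here says nothing of activation or secretion.

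The collagenase genes *Mmp8* and *Mmp13* rose in AclyM-KO BMDMs, and the gelatinase gene *Mmp9* and the membrane-bound *Mmp14* fell. The most abundant metalloproteinase gene, *Mmp12*, had groups that overlapped and did not pass the test. Of the 9 genes tested, 2 were called higher (*Mmp8*, *Mmp13*) and 2 lower (*Mmp9*, *Mmp14*), where 2.98% and 2.57% of all genes tested were called higher and lower, 5.55% in all. Without the limit on the fold change, 3 of the 9 were higher and 4 lower at an adjusted p under 0.05 (edgeR), beside 12.4% and 12.6% of all genes tested, 24.9% in all. The median log2 fold change of the 9 was 0.02, and that of all genes tested was 0.0014. In 7 of the 9 the values of the 2 groups did not overlap, as in 40.2% of all genes tested. Because the RNA came from whole cultures, fewer cells that express a gene and less RNA per cell cannot be told apart.

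**Figure D1:**
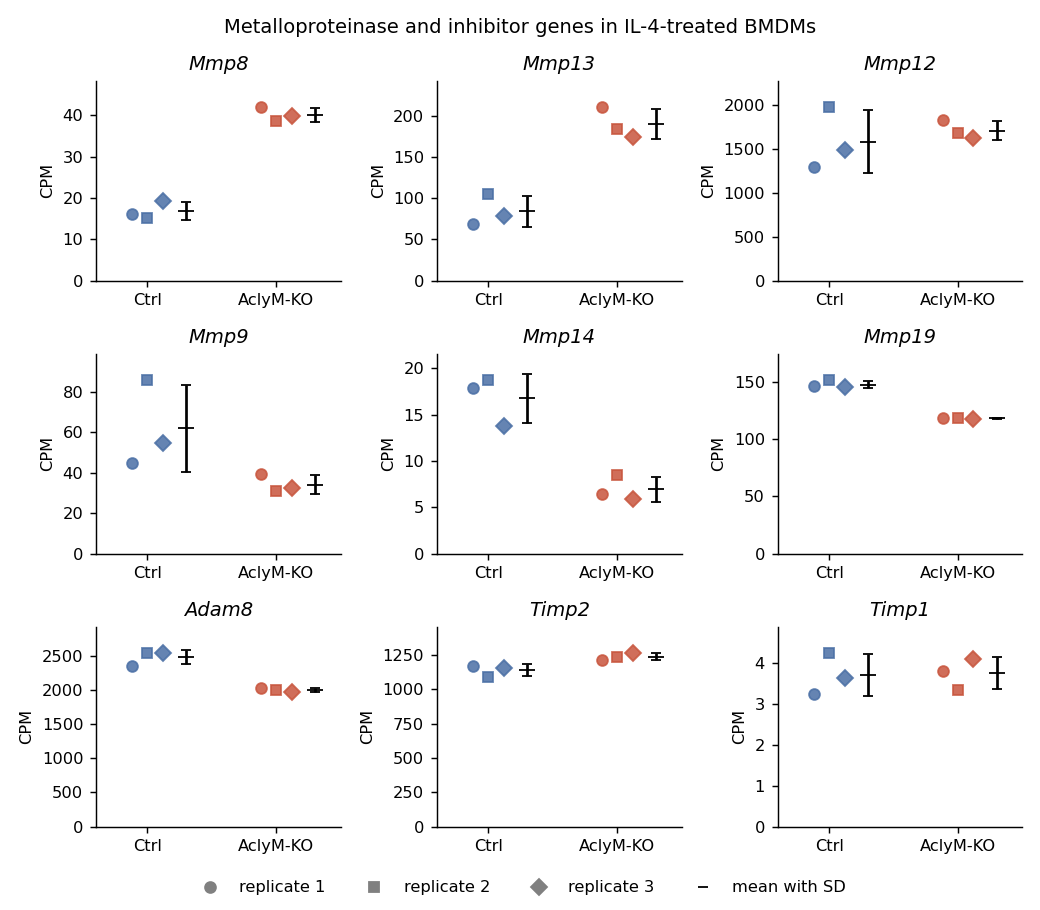
Level of each tested gene in CPM (vertical axes, from 0) in the 3 Ctrl and 3 AclyM-KO libraries, with symbols for the replicate number and black bars for the mean and SD. The groups are apart for *Mmp8*, *Mmp13*, *Mmp9*, *Mmp14*, *Mmp19*, *Adam8* and *Timp2*, and they overlap for *Mmp12* and *Timp1*.

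The collagenases cut the triple helix of fibrillar collagens. *Mmp8* (chromosome 9, 7558456 to 7568485, plus strand, 10 exons, on GRCm38 as annotated by GENCODE), known as neutrophil collagenase, was at 16.1, 15.2 and 19.4 CPM in Ctrl and at 42.0, 38.5 and 39.8 CPM in AclyM-KO. Its lowest AclyM-KO library was thus well above its highest Ctrl library. Its mean rose from 16.9 ± 2.18 to 40.1 ± 1.77 CPM (SD, n = 3), a log2 fold change of 1.25 (SE 0.09, 95% confidence interval 1.06 to 1.44, edgeR adjusted p = 1.61e-07). *Mmp13* (chromosome 9, 7272514 to 7283331, plus strand, 10 exons), which encodes collagenase 3, was at 68.8, 106 and 78.1 CPM in Ctrl and at 211, 185 and 175 CPM in AclyM-KO. Again no AclyM-KO library reached down to the Ctrl range, although the Ctrl libraries differed among themselves. The mean was 84.2 ± 19.3 CPM in Ctrl and 191 ± 18.7 CPM in AclyM-KO (log2 fold change 1.18, SE 0.11, 95% confidence interval 0.94 to 1.42, edgeR adjusted p = 2.17e-06). For both genes a two-sided exact permutation test on CPM gave p = 0.10, the smallest value that 3 libraries against 3 allow.

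*Mmp12* (chromosome 9, 7344381 to 7369499, plus strand, 11 exons) encodes the macrophage elastase. It is the tested metalloproteinase gene nearest to *Mmp13* on the chromosome, and its values were 1290, 1979 and 1485 CPM in Ctrl and 1831, 1679 and 1622 CPM in AclyM-KO. Every AclyM-KO library fell inside the range of the Ctrl libraries. The log2 fold change was 0.11 (SE 0.10, 95% confidence interval -0.11 to 0.33, edgeR adjusted p = 0.475), an interval that lies wholly below that of *Mmp13*. The value rests on Ctrl replicate 2, the highest of the 6 libraries. Without it the log2 fold change was 0.30 (edgeR adjusted p = 7.23e-05), without Ctrl replicate 1 it was -0.02 (edgeR adjusted p = 0.888), and with all 6 libraries but no filter on low counts it was 0.11 (edgeR adjusted p = 0.0336).

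Gelatinase B, the product of *Mmp9*, cuts denatured collagen and basement membrane collagen. *Mmp9* (chromosome 2, 164940780 to 164955850, plus strand, 13 exons) was at 45.0, 85.8 and 54.7 CPM in Ctrl and at 39.2, 30.8 and 32.2 CPM in AclyM-KO. The groups did not overlap, but the gap between the lowest Ctrl and the highest AclyM-KO library was small beside the spread of the Ctrl libraries. Its mean fell from 61.8 ± 21.3 to 34.1 ± 4.51 CPM, a log2 fold change of -0.85 (SE 0.17, 95% confidence interval -1.21 to -0.49, edgeR adjusted p = 0.00172). Without Ctrl replicate 2 it was -0.55 (edgeR adjusted p = 0.000137), which is within the fold limit, so the call rests on that library. When edgeR's glmTreat tested the change against the fold limit itself, *Mmp9* did not pass (adjusted p = 0.729).

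*Mmp14* (chromosome 14, 54431612 to 54445364, plus strand, 10 exons) encodes a membrane-bound metalloproteinase that cuts collagen at the cell surface and activates the precursor of the gelatinase MMP2. It was at 17.8, 18.7 and 13.7 CPM in Ctrl and at 6.41, 8.49 and 5.89 CPM in AclyM-KO. The AclyM-KO libraries were all below the Ctrl libraries, and the mean of 6.93 ± 1.38 CPM was 41.3% of the Ctrl mean of 16.8 ± 2.66 CPM. The log2 fold change was -1.27 (SE 0.15, 95% confidence interval -1.59 to -0.95, edgeR adjusted p = 2.2e-05), from 181 to 264 counts in a Ctrl library and 86 to 132 counts in an AclyM-KO library. *Mmp2* itself was at 13, 8 and 12 counts in the Ctrl and 8, 4 and 4 in the AclyM-KO libraries, too few to be tested.

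*Mmp19* and *Adam8* were lower in AclyM-KO by less than the fold limit. *Mmp19* (chromosome 10, 128790910 to 128800824, plus strand, 9 exons), a metalloproteinase that cuts basement membrane proteins, was at 146, 152 and 146 CPM in Ctrl and at 118.5, 118.6 and 118.1 CPM in AclyM-KO. Its libraries were very close within each group, and the log2 fold change was -0.32 (SE 0.05, edgeR adjusted p = 0.000142). Exons of genes on the other strand, *Tmem198b* and *Gm47093*, cover 28.3% of its exonic bases, and the sources used here do not say whether the counting used strand. *Tmem198b* had 521 to 702 counts in Ctrl and 488 to 581 in AclyM-KO, against 1858 to 2167 and 1723 to 1844 for *Mmp19*, and reads of the overlap cannot be told apart. *Adam8* (chromosome 7, 139978932 to 139992562, minus strand, 24 exons) encodes a membrane-anchored protease of myeloid cells that sheds surface proteins. It was at 2364, 2547 and 2542 CPM in Ctrl and at 2039, 1998 and 1977 CPM in AclyM-KO, with no overlap. Its log2 fold change was -0.31 (SE 0.04, 95% confidence interval -0.39 to -0.23, edgeR adjusted p = 2.07e-05).

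No inhibitor was called. *Timp2* (chromosome 11, 118301069 to 118355740, minus strand, 5 exons), whose protein inhibits metalloproteinases and also takes part in the activation of MMP2 by MMP14, was at 1172, 1090 and 1153 CPM in Ctrl and at 1215, 1232 and 1264 CPM in AclyM-KO. The groups did not overlap, and the difference was small, with a log2 fold change of 0.12 (SE 0.04, 95% confidence interval 0.04 to 0.20, edgeR adjusted p = 0.0376). With DESeq2 the adjusted p was 0.0524, with a replicate block in edgeR it was 0.0651, and leaving out single libraries moved it as far as 0.147.

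*Timp1* (chromosome X, 20870166 to 20874735, plus strand, 6 exons), the inhibitor best known for binding MMP9, was at 3.24, 4.25 and 3.64 CPM in Ctrl and at 3.82, 3.35 and 4.11 CPM in AclyM-KO. The groups overlapped, and the log2 fold change was 0.02 (SE 0.19, 95% confidence interval -0.39 to 0.43, edgeR adjusted p = 0.944). With 48 to 60 counts in a library, a change smaller than this interval was not detectable. *Timp3* (chromosome 10, 86300372 to 86349506, plus strand, 5 exons), a matrix-bound inhibitor that also acts on ADAM proteases, had 0 counts in 5 libraries and 6 counts (0.411 CPM) in AclyM-KO replicate 3. A count of 0 allows up to 0.193 to 0.245 CPM in these 5 libraries, taking 3 counts as the limit and covering counting error only. Exons of *Syn3* on the other strand cover 21.3% of its exonic bases.

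**Figure D2:**
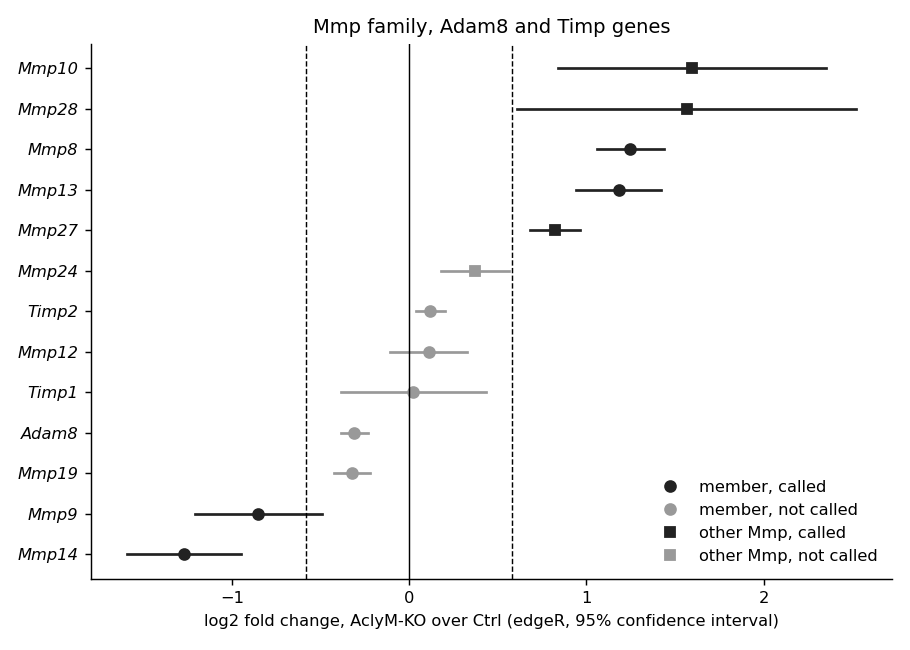
Log2 fold change (AclyM-KO over Ctrl) with its 95% confidence interval from edgeR for the 9 tested genes of the group (circles) and 4 further *Mmp* genes that were tested (squares), with dashed lines at the fold limit of 0.58 and black symbols for called genes. The interval of *Mmp9* crosses the limit, and those of *Mmp8*, *Mmp13* and *Mmp14* do not.

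Per kilobase of transcript, *Mmp12* and *Adam8* were the most abundant of the 10 genes in Ctrl, at 1091 ± 245 and 801 ± 33.6 CPM per kilobase (SD, n = 3). *Timp2* followed at 307 ± 11.6, *Mmp19* at 66.2 ± 1.51, *Mmp13* at 31.5 ± 7.20 and *Mmp9* at 19.5 ± 6.71 CPM per kilobase. *Mmp8* at 6.96 ± 0.900, *Mmp14* at 6.46 ± 1.02 and *Timp1* at 4.21 ± 0.576 CPM per kilobase were the lowest of the tested genes. In Ctrl the ranges of *Mmp13* and *Mmp9* overlapped, as did those of *Mmp8* and *Mmp14*, and the other neighbours in this order had separate ranges.

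The order was different in AclyM-KO. *Mmp13*, at 65.5 to 79.1 CPM per kilobase, stood above *Mmp19*, at 52.8 to 53.0. *Mmp8*, at 15.9 to 17.3 CPM per kilobase, stood above *Mmp9*, at 9.71 to 12.4. *Timp1*, at 3.79 to 4.66 CPM per kilobase, stood above *Mmp14*, at 2.27 to 3.27. In Ctrl each of these pairs had the opposite order, without overlap. The place of *Mmp12* depends on the transcript, since its 3 transcript rows held nearly the same counts (totals within 5) and are 1452 to 3607 bases long. With the longest one its level in Ctrl was 439 ± 98.5 CPM per kilobase, below *Adam8*.

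**Figure D3:**
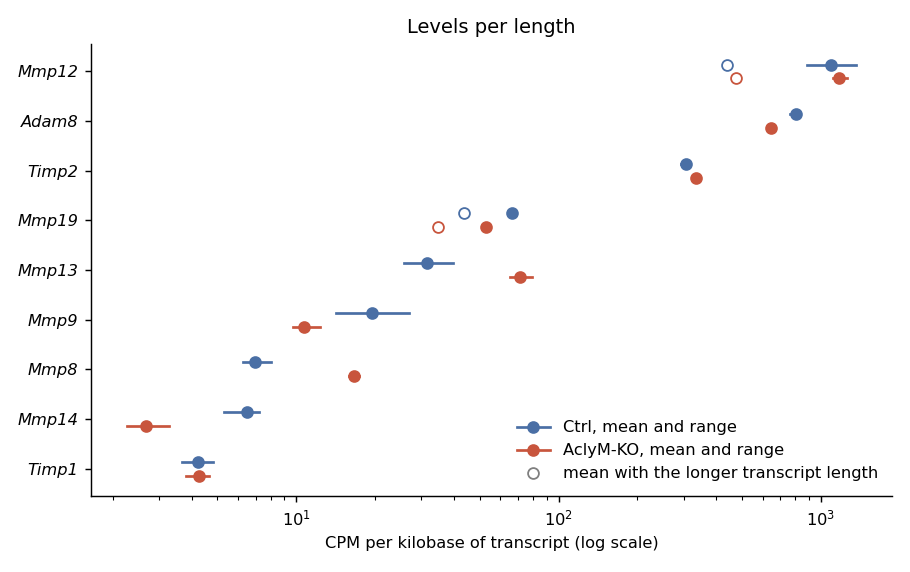
Level of each tested gene in CPM per kilobase of transcript (horizontal, log scale), as the mean (filled points) and range (lines) of the 3 Ctrl and the 3 AclyM-KO libraries. Open points give the mean with the longer transcript length where a gene has several. *Mmp13* passes *Mmp19*, *Mmp8* passes *Mmp9*, and *Timp1* passes *Mmp14* from Ctrl to AclyM-KO.

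*Mmp13* took a larger share of the summed level of the group's 6 metalloproteinase genes in AclyM-KO. *Mmp27*, which is not in this sum, was at 24.1 CPM per kilobase in Ctrl and 42.7 in AclyM-KO. Of the summed level per kilobase of the 6 metalloproteinase genes, with the longest transcripts, *Mmp12* made up 80.1% ± 1.36 in Ctrl and 77.7% ± 0.0611 in AclyM-KO (SD, n = 3). With the shorter transcripts its share was 88.2% to 90.2% in Ctrl and 88.4% to 88.5% in AclyM-KO, which overlap, so the difference in its share depends on the length. *Mmp13* made up 5.74% ± 0.118 in Ctrl and 11.7% ± 0.395 in AclyM-KO. With the shorter transcripts this share was 2.57% in Ctrl and 5.34% in AclyM-KO, so its level differs with the length but its direction does not.

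Ratios within a library do not depend on library size. There were 18.8, 18.7 and 19.0 *Mmp12* counts for each *Mmp13* count in Ctrl but only 8.66, 9.07 and 9.26 in AclyM-KO. The ratio was nearly constant within each group, although each of these genes varied between the Ctrl libraries. *Mmp13* counts were 3.86 to 5.68 times those of *Mmp14* in Ctrl and 21.8 to 32.96 times in AclyM-KO. The counts of *Mmp8* were below those of *Mmp9* in every Ctrl library (ratios 0.177 to 0.357) and above them in every AclyM-KO library (1.07 to 1.25).

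The Ctrl libraries were not alike for these genes. In Ctrl replicate 2, *Mmp9*, *Mmp13* and *Mmp12* were all above the Ctrl mean, by 0.53, 0.35 and 0.34 on the log2 scale, and 1.63%, 4.12% and 4.38% of all genes tested were at or above these deviations there. *Mmp8* did not share this, at -0.14 on the same scale. The spread of the Ctrl libraries therefore differs between the collagenases, and the fold changes of *Mmp9*, *Mmp12* and *Mmp13* depend on this library more than that of *Mmp8*. Without Ctrl replicate 2 *Mmp13* was still called, as was *Mmp8* under each of 16 alternative settings, with log2 fold changes of 1.18 to 1.35 for *Mmp8* and 1.05 to 1.37 for *Mmp13*. *Mmp14* was also called under each of the 16, at -1.44 to -1.17.

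**Figure D4:**
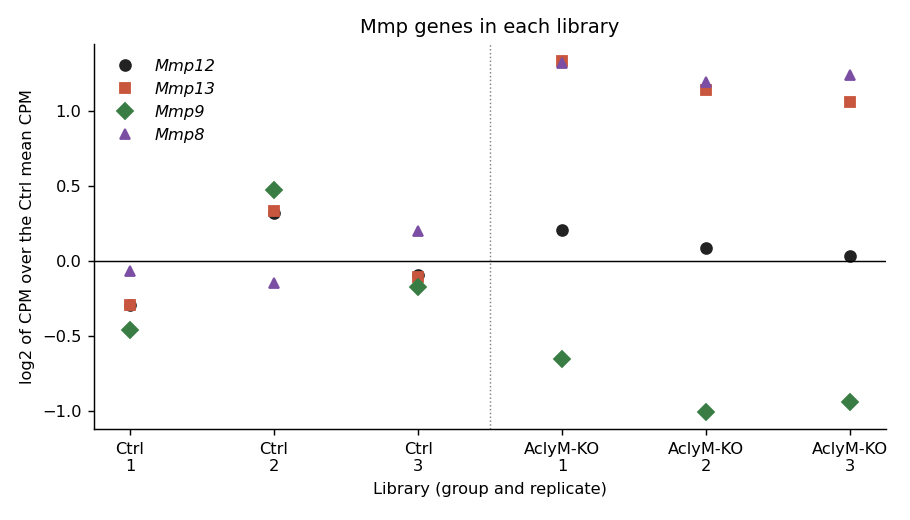
Log2 of the CPM over the Ctrl mean (vertical) for *Mmp12*, *Mmp13*, *Mmp9* and *Mmp8* in each of the 6 libraries (horizontal, Ctrl left of the dotted line). *Mmp12*, *Mmp13* and *Mmp9* are highest among the Ctrl libraries in replicate 2, and *Mmp8* is lowest there.

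*Mmp8*, *Mmp12* and *Mmp13* lie in a cluster of 10 metalloproteinase genes on chromosome 9, between 7272514 and 7699585, and the other genes of this cluster were therefore looked at, after their values had been seen. Of the 10, 5 were tested and 4 were called higher, namely *Mmp13*, *Mmp10*, *Mmp8* and *Mmp27*, with *Mmp12* as the exception, where 2.98% of all genes tested were called higher. *Mmp10* passed the filter on low counts through AclyM-KO alone, so its call is no support for a pattern over the cluster. None was called lower. Outside the cluster 13 metalloproteinase genes had a row and 5 of them were tested. *Mmp28* was called higher and *Mmp9* and *Mmp14* lower, where 2.98% and 2.57% of all genes tested were called higher and lower. Like *Mmp10*, *Mmp28* passed the filter on low counts through AclyM-KO alone. Of 9 other genes within 500 kb of the cluster, 5 were tested, and all 5 were within the fold limit. In edgeR's test 3 of them had an adjusted p under 0.05, beside 24.9% of all genes tested, *Dync2h1* with a log2 fold change of 0.42, *Tmem123* with -0.24 and *Birc3* with -0.37.

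**Figure D5:**
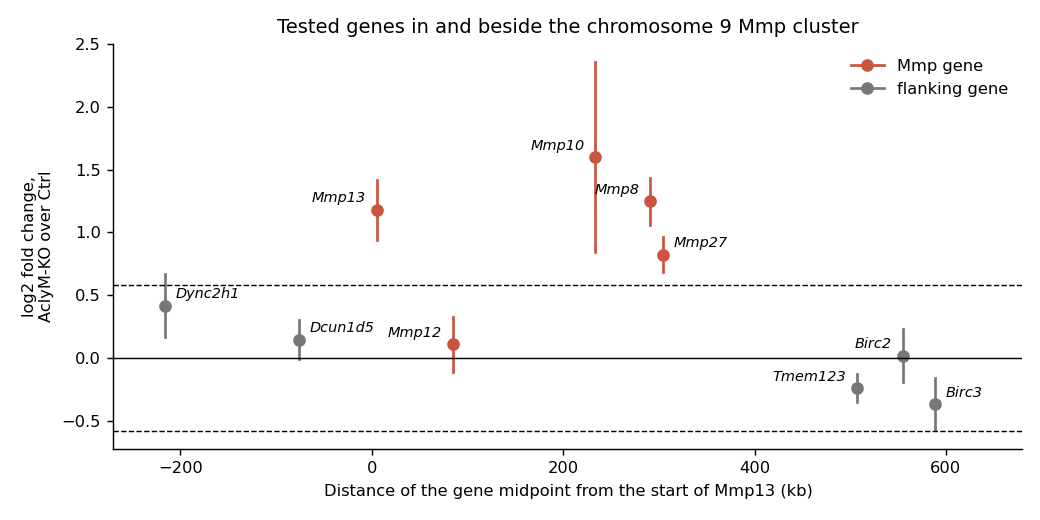
Log2 fold change (AclyM-KO over Ctrl) with its 95% confidence interval from edgeR against the distance of the gene's midpoint from the start of *Mmp13* in kb, for the tested genes of the chromosome 9 cluster and within 500 kb of it. Dashed lines mark the fold limit of 0.58, and 4 of the 5 *Mmp* genes but no flanking gene lie above it.

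The sequences just upstream of these genes are shown because genes of 1 cluster differed in response. They are the 100 bases before the RefSeq start on GRCm38.p6, all on the plus strand, with capitals for matches to the AP-1 motif TGANTCA or the TATA box TATAAA. The first 4 belong to genes that were called higher, the next 2 to the starts of *Mmp12*, and the last to *Mmp14*, which was called lower.
Mmp13 (chr9:7272414-7272513): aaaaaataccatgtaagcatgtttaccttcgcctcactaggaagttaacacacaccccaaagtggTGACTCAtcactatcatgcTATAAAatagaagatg
Mmp10 (chr9:7502242-7502341): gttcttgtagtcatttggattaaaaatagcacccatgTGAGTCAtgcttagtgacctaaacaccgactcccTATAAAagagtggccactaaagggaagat
Mmp8 (chr9:7558329-7558428): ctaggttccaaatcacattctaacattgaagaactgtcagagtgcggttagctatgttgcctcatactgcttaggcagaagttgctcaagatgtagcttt
Mmp27 (chr9:7571296-7571395): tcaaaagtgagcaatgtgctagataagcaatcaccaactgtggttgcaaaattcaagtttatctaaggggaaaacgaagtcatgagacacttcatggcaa
Mmp12, first start (chr9:7344297-7344396): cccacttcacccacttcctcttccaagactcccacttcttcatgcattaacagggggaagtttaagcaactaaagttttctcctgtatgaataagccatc
Mmp12, second start (chr9:7347274-7347373): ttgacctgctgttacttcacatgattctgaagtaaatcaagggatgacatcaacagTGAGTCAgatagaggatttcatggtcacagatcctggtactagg
Mmp14 (chr14:54431498-54431597): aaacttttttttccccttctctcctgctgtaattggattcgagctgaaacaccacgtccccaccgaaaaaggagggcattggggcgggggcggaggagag

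Both strands were searched for each motif. *Mmp13* and *Mmp10* hold an AP-1 match, beginning 35 and 63 bases before the start, and a TATA box, while *Mmp8* and *Mmp27*, which were also called higher, hold neither. *Mmp12* holds an AP-1 match before its second start only. Among 32851 promoter windows of the same length, 2.73% hold the AP-1 motif and 5.56% the TATA box. The ETS motif AGGAAG, held by 13.8% of all windows, matched before *Mmp13*, *Timp1* and the first *Mmp12* start. The STAT6 motif TTCNNNNGAA, in 2.03% of all windows, matched in none of the 13 windows looked at, which cover 8 of the 10 genes of the group and 4 further *Mmp* genes. A match describes letters in a window and shows no binding.

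The 4 other metalloproteinase genes that were tested were all higher in AclyM-KO, but *Mmp10* and *Mmp28* passed the filter through AclyM-KO alone. Of 17 genes, 14 had counts, 4 were tested and 3 were called higher, with a median log2 fold change of 1.19, where 2.98% of all genes tested were called higher. A gene as low as *Mmp10* or *Mmp28* can pass the filter through its higher group alone, so the count and the median over tested genes do not stand for all 17. *Mmp27*, in the cluster beside *Mmp8*, rose from 635, 448 and 533 counts in the Ctrl libraries to 981, 1159 and 1042 in the AclyM-KO libraries (log2 fold change 0.82, SE 0.07, edgeR adjusted p = 4.28e-07). *Mmp10*, which encodes stromelysin 2, rose from 9, 12 and 8 to 36, 43 and 20 counts (log2 fold change 1.60, SE 0.36, edgeR adjusted p = 0.00398). Neither gene overlapped between the groups, but *Mmp10* rests on few reads and was not called by glmTreat. *Mmp28* rose from 6, 12 and 2 to 22, 28 and 17 counts (log2 fold change 1.57, edgeR adjusted p = 0.0190), and was called in 11 of 16 alternative settings. *Mmp24* had a log2 fold change of 0.37 (edgeR adjusted p = 0.00726), within the fold limit. Among genes too low to test, *Mmp15* was at 0, 1 and 2 counts in the Ctrl and 11, 6 and 10 in the AclyM-KO libraries. *Mmp2* went the other way, at 13, 8 and 12 counts in the Ctrl and 8, 4 and 4 in the AclyM-KO libraries. *Mmp3*, *Mmp7* and *Mmp20* had 0 in all 6 libraries.

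Genes that act with metalloproteinases were looked at list by list, beside the 5.55% of all genes tested that passed the limits. Of 5 other inhibitors 2 were tested and 0 called by edgeR or DESeq2, *Reck* with a log2 fold change of 0.38 (adjusted p = 0.369) and *Tfpi2* with 0.32 (adjusted p = 0.605), and 0 had an unadjusted p under 0.05, as 36.7% of all genes tested did. Of 17 other ADAM and ADAMTS proteases 8 were tested and 1 was called, beside 5.55% of all genes tested. This was *Adam33*, which fell, at 57, 57 and 53 counts in Ctrl and 35, 22 and 29 in AclyM-KO (log2 fold change -1.11, SE 0.23, edgeR adjusted p = 0.00227). Within the fold limit, the sheddase gene *Adam10* (log2 fold change 0.19, edgeR adjusted p = 0.0082) and *Adamts1* (0.34, edgeR adjusted p = 0.0380) were higher, and the sheddase gene *Adam17* had a log2 fold change of -0.12 (edgeR adjusted p = 0.0861). Among the 6 tested of 11 genes of the plasminogen system, which activates metalloproteinase precursors, *Serpinb2* was called higher on few counts, 6, 11 and 10 in Ctrl and 21, 30 and 20 in AclyM-KO (log2 fold change 1.22, edgeR adjusted p = 0.0204), where 2.98% of all genes tested were, and was not called by DESeq2. Like *Mmp10*, it passed the filter on low counts through AclyM-KO alone. *Plau* and *Plaur*, urokinase and its receptor, had log2 fold changes of -0.21 and 0.0003, neither past an adjusted p of 0.05. *Anxa2* and *S100a10*, which together bind plasminogen at the cell surface, were higher within the fold limit, with log2 fold changes of 0.18 and 0.30.

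Among 7 genes for the activation or surface handling of metalloproteinases, 5 were tested and 0 called by edgeR or DESeq2, while 3 had an unadjusted p under 0.05 (36.7% of all genes tested), and these 3 were lower at an adjusted p under 0.05 (12.6% of all genes tested). These were *Furin*, a protease that activates MMP14, with a log2 fold change of -0.15, *Bsg*, an inducer of metalloproteinases, with -0.18, and *Lrp1*, an endocytic receptor that clears MMP9 and MMP13, with -0.55. *Lrp1* (12188, 17251 and 11388 counts in Ctrl, 11023, 10022 and 10602 in AclyM-KO) was, like *Mmp9*, highest in Ctrl replicate 2, and its log2 fold change ranged from -0.69 to -0.26 over the alternatives. *Cd44*, a receptor that holds MMP9 at the cell surface, had a log2 fold change of 0.02 (edgeR adjusted p = 0.819). Of 15 AP-1 and ETS factor genes, 13 were tested and 0 called by edgeR or DESeq2, while 6 had an unadjusted p under 0.05 beside 36.7% of all genes tested, with *Junb* (-0.35), *Fosl2* (-0.24) and *Jund* (-0.22) lower and *Etv1* (0.46) higher at an adjusted p under 0.05 (24.9% of all genes tested). The most abundant, *Atf3* and *Etv3*, had log2 fold changes of 0.09 and 0.11, neither past that limit. Of 11 other matrix-degrading enzymes 8 were tested, and 1 was called higher and 1 lower, beside 5.55% of all genes tested called in all. *Ctsk*, the collagen-cutting cathepsin K, rose from 15.7 to 32.3 CPM (log2 fold change 1.04, SE 0.09, edgeR adjusted p = 6.7e-07), and *Hyal1*, a hyaluronidase, fell from 61.8 to 34.7 CPM (log2 fold change -0.83, SE 0.08, edgeR adjusted p = 1.6e-06). Exons of *Hyal3* and *Naa80* on the same strand cover 51.9% of the exonic bases of *Hyal1*, and reads of the overlap cannot be told apart. In all, 4 of the 8 were higher and 3 lower at an adjusted p under 0.05 (24.9% of all genes tested), and all 8 had groups that did not overlap (40.2% of all genes tested). Among the abundant cathepsins, the log2 fold changes were 0.13 for *Ctsb*, 0.22 for *Ctsd* and 0.35 for *Ctsl*, which were higher. *Ctss* was lower, at -0.17. Exons of *Gm49369* on the same strand cover 34.4% of the exonic bases of *Ctsd*. The median log2 fold changes were -0.15, -0.07 and -0.02 for these 3 lists. The medians were 0.09 for the plasminogen system and -0.08 for the ADAM proteases, beside 0.0014 for all genes tested.

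Since *Mmp8* and *Mmp9* are known as neutrophil genes, neutrophil markers were looked at beside them. Of 12 markers 6 were tested, and *S100a8* and *S100a9* were called higher in AclyM-KO, from 2.95 to 5.33 CPM (edgeR adjusted p = 0.00257) and from 5.61 to 8.44 CPM (edgeR adjusted p = 0.0152), where 2.98% of all genes tested were called higher. Neither was called by glmTreat, and *S100a9* was also not called without Ctrl replicate 3. The log2 fold change of *S100a9* ranged from 0.42 to 0.72 over the alternatives. Among the granule genes tested, *Ngp* was at 59 to 69 counts in Ctrl and 83 to 104 in AclyM-KO. Its log2 fold change was 0.37 (edgeR adjusted p = 0.108). *Ltf* was at 42 to 58 and 67 to 74 counts (0.35, edgeR adjusted p = 0.206). *Lcn2* was at 19 to 30 and 29 to 45 counts (0.36, edgeR adjusted p = 0.356). The values of *Ngp* and *Ltf* did not overlap between the groups, as for 40.2% of all genes tested. With these, 5 of the 6 tested markers had a positive log2 fold change, beside 50.3% of all genes tested, and the median of the 6 was 0.37. The summed level of all 12 was 202 to 222 CPM in Ctrl and 169 to 183 CPM in AclyM-KO, but most of it came from *Csf3r*, which was lower within the fold limit (log2 fold change -0.39, edgeR adjusted p = 0.000144). Without *Csf3r* the sum was 18.5 to 21.8 CPM in Ctrl and 26.9 to 29.8 CPM in AclyM-KO. The remaining 6 markers were too low to test, and among them *Ly6g*, *Mpo*, *Elane* and *Camp* had 0 to 5 counts in every library. The part of neutrophil RNA in the values of *Mmp8* and *Mmp9* was not tested.

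By the pattern over the 6 libraries, the genes nearest to *Mmp8* were *Idi1*, *Dnmt3aos* and *Ednrb*, with root mean squared differences of log2 CPM, centred on the Ctrl mean, of 0.05, 0.10 and 0.11. Those nearest to *Adam8* were *Elmo2*, *Csf2rb2* and *Ccdc77*, at 0.02, 0.02 and 0.03. These 2 genes were taken because their p was smallest in each direction.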

How the data were processed

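The 6 BMDM libraries (strand-specific KAPA mRNA) were sequenced by the authors on an Illumina HiSeq. Per the submitters' processing notes, CASAVA 1.8.2, STAR 2.5.2b and mm10 were used, and the counting program is not given in the sources used here. The authors deposited unnormalized read counts per RefSeq transcript (35745 rows). Because isoform rows share reads, the row with the highest total was kept for each gene. The 117 rows without a gene, 0.370% to 1.38% of counts, were left out. For the remaining 12023 genes after filterByExpr, edgeR 4.0.16 (R 4.3.3) was run with TMM scaling, glmQLFit and glmQLFTest on genotype alone, p-values were adjusted by Benjamini-Hochberg, and the procedure was tested on simulated data. DESeq2 1.42.0, limma 3.58.1, other scalings, filters and row choices, a replicate term and the removal of each library were alternatives. Levels per length use GENCODE M21 lengths, and promoters are RefSeq's on GRCm38.p6. The genes and lists were chosen with earlier results of these data known. Text names all 10 genes, *Acly*, called genes of the other pathway lists or else the 2 most abundant in each, and 3 nearest genes for each of 2 genes. Other genes named were chosen after their values were seen.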

Additional observations from a re-analysis of the deposited data

How the results depend on the processing

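Of the results for the genes of the group, *Mmp8*, *Mmp13* and *Mmp14* were called under each of the 16 alternatives. Testing against the fold limit (glmTreat) gave 77 genes higher and 41 lower, in place of 358 and 309, with 1 of the group lower and *Mmp9* (-0.85) not called. Without a fold limit 1485 genes were higher and 1511 lower, with 4 of the group lower. With single libraries left out, 1 to 2 of the group were lower, and the log2 fold changes ranged from -1.04 to -0.55 for *Mmp9*, from -0.021 to 0.30 for *Mmp12*, from 0.08 to 0.14 for *Timp2* and from -0.072 to 0.12 for *Timp1*. *Mmp12* turned negative without Ctrl replicate 1, and *Timp1* without Ctrl replicate 1 (-0.072) and AclyM-KO replicate 3 (-0.045). The lists gave 2 to 4 calls for other metalloproteinases (2 without AclyM-KO replicate 1 or 2, 4 without Ctrl replicate 2), 2 to 3 for osteoclast markers, 0 to 1 for the plasminogen system, 0 to 1 for activation and surface handling, 1 to 2 for neutrophil markers and 0 to 1 for dendritic cell markers, and DESeq2 gave 0 for the plasminogen system and for dendritic cell markers. In the main fit 4, 6, 6, 5, 6 and 3 genes of these lists were tested, in this order, and 5.55% of all genes tested were called. *Mmp10*, *Mmp28*, *Serpinb2* and *Cd209a* passed the filter on low counts through AclyM-KO alone. The causes of these changes between settings were not tested.

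With a replicate block, 350 genes were higher and 302 lower, and of the group only *Timp2* (log2 fold change 0.12, edgeR adjusted p = 0.0651) changed sides. The numbers share only a label, since deviations of same-numbered libraries correlated at -0.05, 0.04 and -0.02, and 1 of the 3 Ctrl libraries correlated best with its own number. Level per kilobase with the longest transcript, chosen after seeing the data, was 439 for *Mmp12* and 43.5 for *Mmp19* in Ctrl. With 3 libraries a group and few counts, small changes of *Timp1*, *Mmp10*, *Mmp28* and *Serpinb2* could not be resolved.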

Other observations

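Marker lists of other cell types gave the following values. Of 10 fibroblast markers 1 was tested, *Postn* (log2 fold change -1.07, edgeR adjusted p = 0.00366), and their summed level was 3.72 to 6.38 CPM in Ctrl and 3.89 to 5.002 CPM in AclyM-KO. Of 8 osteoclast markers 6 were tested. *Ctsk* was called higher, and *Acp5* (log2 fold change -0.63) and *Ocstamp* (-1.31) were called lower, where 2.98% and 2.57% of all genes tested were called higher and lower. The other 3, *Dcstamp* (-0.36, edgeR adjusted p = 0.0180), *Nfatc1* (-0.31, edgeR adjusted p = 0.00332) and *Atp6v0d2* (-0.19, edgeR adjusted p = 0.00107), were lower within the fold limit, so 5 of the 6 were lower at an adjusted p under 0.05, beside 12.6% of all genes tested, and the median was -0.33. Their summed level, mostly *Atp6v0d2*, was 2044 to 2158 CPM in Ctrl and 1805 to 1851 CPM in AclyM-KO, and *Calcr* had 0 counts. Of 7 dendritic cell markers 3 were tested and *Cd209a* was called higher (log2 fold change 1.66, edgeR adjusted p = 0.0128), where 2.98% of all genes tested were. It passed the filter on low counts through AclyM-KO alone, with 3, 3 and 6 counts in the Ctrl and 12, 16 and 15 in the AclyM-KO libraries, and it was not called by DESeq2 or without Ctrl replicate 1. The summed level of the 7 was 9.19 to 11.9 CPM in Ctrl and 9.66 to 11.1 CPM in AclyM-KO.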
